A study of Mus musculus with 9 samples.

Results

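The expression of 9 genes of the extracellular matrix was followed: Fn1, which encodes fibronectin, and the matricellular genes Thbs1, Thbs2, Tnc, Postn, Tgfbi, Sparc, Smoc2 and Spp1. They were chosen by name, as the rows of the deposited expression table that the platform annotation maps to that symbol alone. Such a row was found for 8 of the 9 genes, out of 19938 genes with a row of this kind, and each of the 8 had 1 row. Spp1, which encodes osteopontin, was not analysed here because no row carried its symbol.

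The study read RNA of 3 kinds of mouse cells, all labelled C57BL/6, on Affymetrix Mouse Gene ST arrays: cells described as adult cardiac fibroblasts after dedifferentiation, which the series title calls protein-based, embryonic stem (ES) cells, and adult cardiac fibroblasts. Each group had 3 samples and each sample 1 array. The labels used here name neither the dedifferentiating protein nor the ES line, and give neither the age of the mice nor the use of feeder cells. Nothing in them ties the 3 samples of a group to different mice or different dishes, so every p-value rests on a spread that could be technical.

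Matricellular proteins are secreted into the matrix but do little to hold it up mechanically; they bind matrix fibres, growth factors and cell-surface receptors and alter how cells attach, migrate and signal. Fibronectin is a structural glycoprotein that cells assemble into fibrils through integrins and on which much of the other matrix is laid down. In the heart, many of these genes are known for their induction in activated fibroblasts after injury, and several of them are targets of TGF-beta signalling. Some also have roles in the early embryo, where fibronectin is required and Sparc is abundant in parietal endoderm.

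Values below are log2 expression levels after RMA, a method that normalizes all arrays to a common distribution, so a step of 1 is a change of 2-fold. Levels are compared between groups for a given gene and never between genes. Words such as fell and rose give the sign of a difference between group means, not a change followed in the same cells. A gene was called higher or lower where limma gave a Benjamini-Hochberg adjusted p under 0.05 over all 19938 genes and the group means differed by at least 1 log2 unit. Tnc, Thbs2 and Smoc2 in ES cells, and Postn in both dedifferentiated and ES cells, averaged below the lowest array median, 4.65. Smoc2 in dedifferentiated cells, at 4.77, averaged below the medians of those arrays, 4.78 to 4.81. The table has no detection call to show such values above background, so percentages and folds that use them are ratios of the listed values and not exact. In bulk RNA, fewer cells of a type and less RNA per cell cannot be told apart.

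All 10 fibroblast markers were called lower in the dedifferentiated cells and in the ES cells than in the fibroblasts, led by Col3a1 at -6.67 and Tcf21 at -6.63 in dedifferentiated cells and by Dcn at -7.36 and Col3a1 at -7.01 in ES cells. All 8 pluripotency markers were called higher, led by Tdgf1 at 8.39 and Pou5f1 at 7.82 in dedifferentiated cells and by the same genes at 8.17 and 7.82 in ES cells. Between dedifferentiated and ES cells 0 of the 8 were called, and Lin28a had the smallest p at 0.54 log2 units (adjusted p = 0.0005). Of all genes, 10.1% were called lower and 8.79% higher in dedifferentiated cells than in fibroblasts. In ES cells these shares were 10.4% and 8.85%, and between dedifferentiated and ES cells 1.55% of all genes were called. Array medians lay between 4.65 and 4.86, and arrays of the same group correlated at 0.988 to 0.995. Sex-linked transcripts set the fibroblasts apart from the dedifferentiated cells that are described as derived from them: Xist, which coats an inactive X chromosome, averaged 3.25 in dedifferentiated cells, 3.15 in ES cells and 7.31 in fibroblasts, and the Y-linked Eif2s3y averaged 8.09, 7.76 and 3.55 in the same order. Uty, also Y-linked, differed by 2.63 in dedifferentiated and by 1.90 in ES cells relative to fibroblasts, and by 0.73 between dedifferentiated and ES cells, where it had the smallest p of the sex-linked list and was not called. The last of the 4 listed, the Y-linked Kdm5d, averaged 3.74 in dedifferentiated cells, 3.25 in ES cells and 3.11 in fibroblasts. It was not called in any comparison, and these means lie below every array median. Macrophage markers also moved, with 4 of 9 called lower in the dedifferentiated cells (10.1% of all genes), led by Lyz2 at -5.65 log2 units and C1qc at -1.98. The same number was called lower in the ES cells (10.4% of all genes), led by Lyz2 at -5.52 and C1qb at -2.02. Between dedifferentiated and ES cells 0 of 9 were called (1.55% of all genes), and Ptprc had the smallest p at -0.16. The mean level of the 9 macrophage markers ranged from 3.75 to 3.8 in dedifferentiated, 3.79 to 3.89 in ES and 5.35 to 5.52 in fibroblast arrays. The part of the macrophage markers in the results was not tested, and sex-linked transcripts cannot be told apart from the groups in comparisons with fibroblasts.

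The first comparison set the dedifferentiated cells against the fibroblasts they are described as coming from. Every measured gene was lower in the dedifferentiated cells, with no overlap between the arrays of the groups, and the differences ran from -0.38 log2 units for Sparc to -6.26 for Postn. Of the 8 genes, 7 were called lower and 0 higher, where 10.1% of all genes were called lower and 8.79% higher. The median difference of the 8 was -2.70 log2 units, against 0.01 over all genes. Arrays did not overlap for 54.7% of all genes, so the lack of overlap alone says little about these 8.

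The second comparison set ES cells against the same fibroblasts. Of the 8 genes, 6 were called lower and 0 higher, where 10.4% of all genes were called lower and 8.85% higher, and the median difference was -2.82. The arrays of the groups did not overlap for any of the 8, as for 51.9% of all genes. The third set the dedifferentiated cells against ES cells. Only Tnc was called of the 8, as higher, where 1.01% of all genes were called higher and 0.547% lower. Both comparisons with fibroblasts use the same 3 fibroblast arrays, so their values are given side by side and their likeness is not counted as a result.

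**Figure D1:**
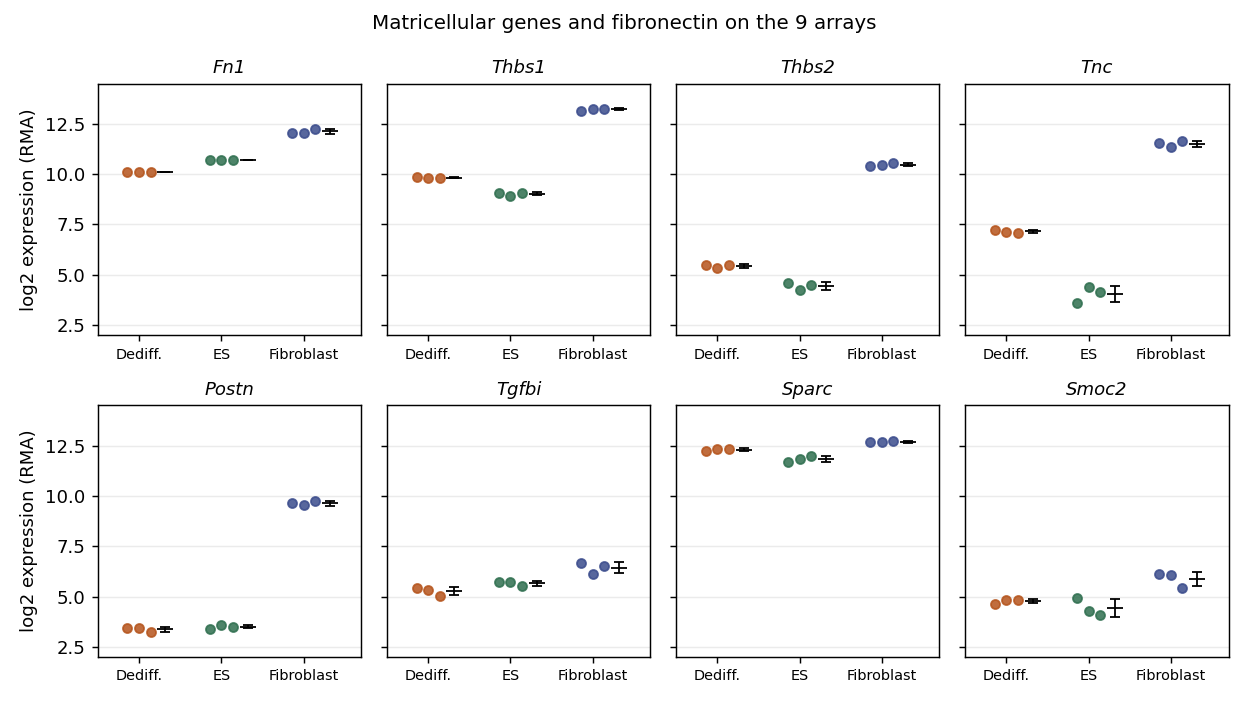
Log2 expression (RMA, vertical axis) of the 8 measured genes on each array, with dedifferentiated cells left, ES cells in the middle and fibroblasts right; coloured points are arrays, and the black dash and bar beside them are the mean and SD of 3 arrays. Fibroblast arrays are the highest in all 8 panels. Tnc shows 3 separate levels, at 7.15, 4.04 and 11.52 on average, while Postn is at 3.37 and 3.49 in the dedifferentiated and ES cells and at 9.63 in fibroblasts.

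Fibronectin was lower in both other cell types than in fibroblasts. Fn1 read 10.13, 10.12 and 10.13 on the dedifferentiated arrays, 10.72, 10.69 and 10.71 on the ES arrays, and 12.07, 12.06 and 12.25 on the fibroblast arrays. The 3 groups did not overlap, and the dedifferentiated cells were the lowest of them. Fn1 was lower by 2.00 log2 units in the dedifferentiated cells than in fibroblasts (95% interval of the difference -2.16 to -1.84, adjusted p = 9.2e-10), at 25% of the fibroblast level on the linear scale. In ES cells it was lower by 1.42 (-1.58 to -1.25, adjusted p = 1.7e-08), at 37.4%. The difference of -0.58 between dedifferentiated and ES cells (-0.75 to -0.42, adjusted p = 0.00028) was larger than the spread between arrays but under the size required for a call. The SD of the dedifferentiated arrays, 0.0033, was far below that of the fibroblast arrays, 0.11. The row gives 1 summary value for all its probes, so fibronectin splice forms were not separated.

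Thbs1 and Thbs2 encode thrombospondins, secreted glycoproteins that bind CD36, CD47 and integrins and restrain blood vessel growth; thrombospondin 1 can also activate latent TGF-beta. Thbs1 read 9.88, 9.81 and 9.81 on dedifferentiated, 9.06, 8.93 and 9.07 on ES and 13.16, 13.26 and 13.26 on fibroblast arrays. Fibroblasts were far above the other cells, and dedifferentiated cells stood above ES cells on every array. Thbs1 fell by 3.39 (95% interval -3.55 to -3.23) in dedifferentiated cells and fell by 4.20 (-4.37 to -4.04) in ES cells, leaving 9.53% and 5.43% of the fibroblast level. The dedifferentiated cells differed from ES cells by 0.81 (0.65 to 0.97, adjusted p = 3.4e-05), short of the required size.

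Thbs2 was lower still relative to fibroblasts. It read 5.48, 5.33 and 5.48 on dedifferentiated arrays, 4.61, 4.25 and 4.48 on ES arrays and 10.39, 10.46 and 10.54 on fibroblast arrays. The order of the groups was that of Thbs1, without overlap. Thbs2 fell by 5.04 (95% interval -5.25 to -4.82) in the dedifferentiated cells, 32.8-fold, and fell by 6.02 (-6.24 to -5.80) in ES cells, 64.9-fold. The difference between dedifferentiated and ES cells, 0.98 (0.77 to 1.20, adjusted p = 6e-05), lay just under the 1 log2 unit required. It passed that size without dedifferentiated replicate 2 (1.03), ES replicate 1 (1.06) or ES replicate 3 (1.00), and with array weights (1.13).

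Tnc encodes tenascin-C, a large hexameric glycoprotein that loosens the grip of cells on fibronectin and is made at sites of tissue remodelling. It read 7.24, 7.12 and 7.09 on dedifferentiated arrays, 3.61, 4.38 and 4.13 on ES arrays, and 11.55, 11.36 and 11.63 on fibroblast arrays. The dedifferentiated cells lay between the other groups, with a gap of 2.72 log2 units to the highest ES array and of 4.11 to the lowest fibroblast array. Tnc fell by 4.36 in dedifferentiated cells (95% interval -4.72 to -4.01, adjusted p = 9.2e-10), 20.6-fold, and fell by 7.48 in ES cells (-7.83 to -7.12, adjusted p = 1.2e-11), 178-fold. The dedifferentiated level was thus 4.86% of the fibroblast level. The ES fold rests on listed values below the array medians.

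Set against ES cells, Tnc rose by 3.11 in the dedifferentiated cells (95% interval 2.75 to 3.47, adjusted p = 1.1e-06), 8.64-fold. This was the 3rd largest rise of 19938 genes in that comparison. Over the 19 alternative settings the difference stayed between 2.87 and 3.28 and was called in each. The next largest difference among the 8 genes was the 0.98 of Thbs2.

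Some of the listed cell type markers also differed between dedifferentiated and ES cells, while most were not called. Of 10 fibroblast markers, 3 were called higher in the dedifferentiated cells and 0 lower (1.01% and 0.547% of all genes). The 3 were the filament protein Vim by 1.51, the growth factor receptor Pdgfra by 1.37 and the proteoglycan Dcn by 1.20. The mean level of the 10 markers ranged from 6.30 to 6.39 on dedifferentiated, 5.79 to 5.80 on ES and 11.02 to 11.13 on fibroblast arrays. The other 7 markers were not called: Thy1 differed by 0.85, Col3a1 by 0.34, Col1a1 by 0.31, Col1a2 by 0.23, Tcf21 by 0.02, Lum by -0.10 and Pdgfrb by -0.23. In the dedifferentiated cells the 10 markers stood at between 0.984% (Col3a1) and 27.8% (Pdgfra) of their fibroblast levels, with Vim at 24.8% and Thy1 at 27.2%.

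Of 11 primitive and parietal endoderm markers, 4 were called higher in the dedifferentiated than in ES cells and 0 lower (1.01% and 0.547% of all genes). The rises were led by the transcription factors Sox17 at 1.79 and Gata4 at 1.63. Pdgfra belongs to this list and to the fibroblast markers and is counted in both. The mean level of the 11 endoderm markers ranged from 8.86 to 9.10 on dedifferentiated arrays, from 7.87 to 8.29 on ES arrays and from 7.84 to 7.87 on fibroblast arrays. Afp was not called between any groups and averaged 3.59 in dedifferentiated, 3.67 in ES and 3.69 in fibroblast cells. Among 7 endothelial markers 1 was called higher, Cdh5 at 1.38, where 1.01% of all genes were called higher. The part of these markers in the Tnc difference was not tested.

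**Figure D2:**
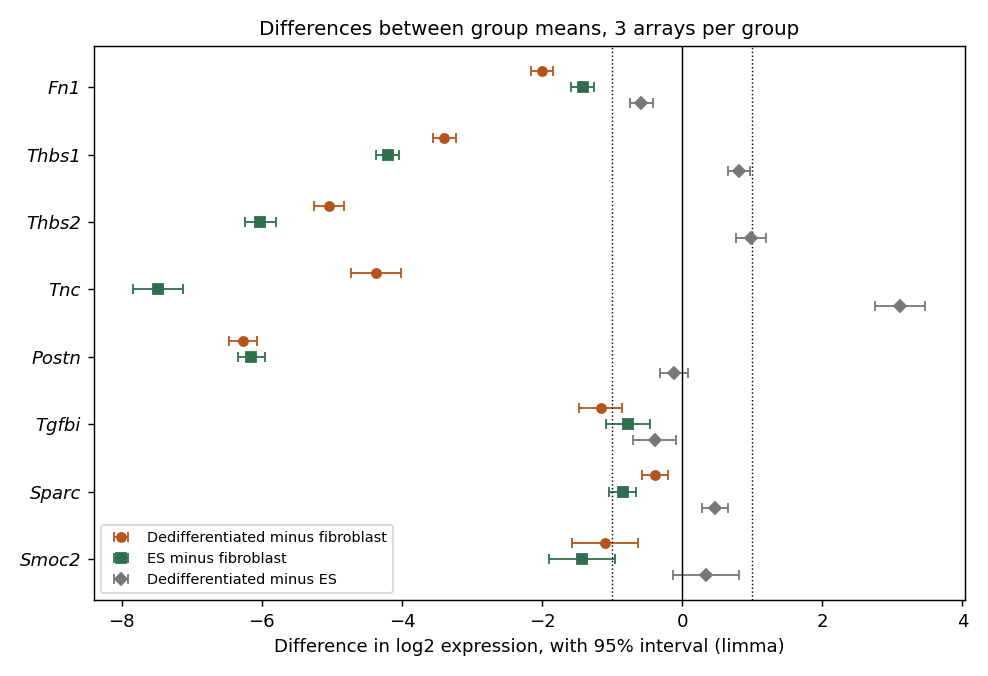
Differences between group means in log2 units (horizontal axis) with 95% intervals from limma, for dedifferentiated minus fibroblast (circles), ES minus fibroblast (squares) and dedifferentiated minus ES (diamonds), 3 arrays per group; dotted lines mark 1 log2 unit either way. Among the diamonds only that of Tnc, at 3.11, lies wholly outside the dotted lines, and the interval of Thbs2, 0.77 to 1.20, crosses one of them.

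Postn and Tgfbi encode periostin and the TGF-beta-induced protein, related secreted proteins built of fasciclin domains that bind integrins and collagen. Postn read 3.42, 3.45 and 3.24 on dedifferentiated arrays, 3.41, 3.56 and 3.49 on ES arrays and 9.62, 9.52 and 9.75 on fibroblast arrays. The dedifferentiated and ES arrays overlapped, and both groups lay about 6 log2 units below fibroblasts. Postn fell by 6.26 in dedifferentiated cells (95% interval -6.46 to -6.07, adjusted p = 1.4e-12), 76.8-fold, and fell by 6.15 in ES cells (-6.34 to -5.95), 70.9-fold. Between dedifferentiated and ES cells it differed by -0.12 (-0.31 to 0.08, adjusted p = 0.46). The table carries no detection call, so whether Postn transcripts were present at all in either cell type was not measured.

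Tgfbi differed far less between groups than Postn. It read 5.42, 5.33 and 5.05 on dedifferentiated arrays, 5.73, 5.73 and 5.52 on ES arrays and 6.65, 6.12 and 6.52 on fibroblast arrays. The groups did not overlap, and their SDs were 0.20 in dedifferentiated cells, 0.12 in ES cells and 0.27 in fibroblasts. Tgfbi fell by 1.16 in the dedifferentiated cells (95% interval -1.47 to -0.85, adjusted p = 2.3e-05). In ES cells it differed by -0.77 (-1.08 to -0.46, adjusted p = 0.00061), under the required size. The difference between dedifferentiated and ES cells was -0.39 (-0.70 to -0.08, adjusted p = 0.076).

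Sparc and Smoc2 belong to a family of secreted calcium-binding proteins; SPARC binds collagen and counters cell spreading. Sparc read 12.24, 12.32 and 12.35 on dedifferentiated arrays, 11.69, 11.85 and 11.97 on ES arrays and 12.66, 12.68 and 12.74 on fibroblast arrays. The groups did not overlap, though their means lay within 1 log2 unit of each other. The dedifferentiated cells differed from fibroblasts by -0.38 (95% interval -0.57 to -0.20, adjusted p = 0.0023), at 76.6% of the fibroblast level, and the ES cells by -0.85 (-1.04 to -0.66), at 55.5%. The dedifferentiated cells differed from ES cells by 0.47 (0.28 to 0.65, adjusted p = 0.0024). All 3 differences had an adjusted p under 0.05 and none reached 1 log2 unit.

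Smoc2 read 4.64, 4.82 and 4.84 on dedifferentiated arrays, 4.92, 4.28 and 4.09 on ES arrays and 6.10, 6.06 and 5.44 on fibroblast arrays. The dedifferentiated and ES arrays overlapped, and the fibroblast arrays lay above both. Smoc2 fell by 1.10 in dedifferentiated cells (95% interval -1.57 to -0.63, adjusted p = 0.00099), which became -0.98 and was no longer called without fibroblast replicate 1. In ES cells it fell by 1.43 (-1.90 to -0.96). Dedifferentiated and ES cells differed by 0.34 (-0.13 to 0.81, adjusted p = 0.35).

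For each of the 8 genes the fibroblasts had the highest level. Below them, the dedifferentiated cells stood above ES cells without overlap for Tnc, Thbs2, Thbs1 and Sparc, and below them without overlap for Fn1 and Tgfbi. Postn and Smoc2 overlapped between these groups. Arrays of dedifferentiated and ES cells did not overlap for 32.6% of all genes.

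Promoter sequences of 6 of the 9 genes were available from RefSeq (build GRCm38.p6). The 250 bases before a start site are shown for Tnc, which differed between dedifferentiated and ES cells, for Postn and Thbs2, which fell most with it relative to fibroblasts, and for Sparc, which was not called in any comparison. Tnc and Postn have 2 listed start sites each, and the downstream one is shown. The windows are chr4:64046937-64047186 on the minus strand for Tnc, chr3:54360857-54361106 on the plus strand for Postn, chr17:14694263-14694512 on the minus strand for Thbs2 and chr11:55420081-55420330 on the minus strand for Sparc. Sequences run 5′ to 3′ on the gene's strand, and capitals mark matches to the motifs searched.
Tnc: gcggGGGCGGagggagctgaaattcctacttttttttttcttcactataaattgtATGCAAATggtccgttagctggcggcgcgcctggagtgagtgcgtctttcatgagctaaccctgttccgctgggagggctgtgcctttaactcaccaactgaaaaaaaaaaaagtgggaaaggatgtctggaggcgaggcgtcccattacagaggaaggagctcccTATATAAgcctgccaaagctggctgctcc
Postn: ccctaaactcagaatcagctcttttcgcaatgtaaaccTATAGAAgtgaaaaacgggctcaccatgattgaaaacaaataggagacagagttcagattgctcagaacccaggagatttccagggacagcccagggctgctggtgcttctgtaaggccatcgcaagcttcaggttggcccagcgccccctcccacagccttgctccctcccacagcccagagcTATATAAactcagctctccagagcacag
Thbs2: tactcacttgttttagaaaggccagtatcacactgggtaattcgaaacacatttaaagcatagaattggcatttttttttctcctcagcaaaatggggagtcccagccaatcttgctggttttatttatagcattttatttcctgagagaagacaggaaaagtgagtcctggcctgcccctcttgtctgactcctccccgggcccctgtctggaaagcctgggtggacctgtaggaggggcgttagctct
Sparc: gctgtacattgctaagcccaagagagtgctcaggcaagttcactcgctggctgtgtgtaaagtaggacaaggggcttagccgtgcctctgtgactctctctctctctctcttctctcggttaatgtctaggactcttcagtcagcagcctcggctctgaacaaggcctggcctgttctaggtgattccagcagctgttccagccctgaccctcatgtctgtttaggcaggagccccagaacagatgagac
Motifs were chosen after the sequences had been read and were searched on both strands. TATANAA stood for a TATA-like box. The octamer bound by POU factors such as Oct4 was spelled ATGCAAAT. Sites of AP-1, the Fos and Jun dimer, were spelled TGANTCA. For the GC box, bound by Sp1, the letters were GGGCGG. TEAD factors, the partners of YAP, were represented by CATTCC. The serum response factor's CArG box was the last of the 6. None of the matches shown overlap. A TATA-like match began 29 bases before the downstream Tnc start and 28 before the downstream Postn start, and Postn held another 212 bases before it; 10.4% of 32851 windows of this length held 1 or more. The Tnc window held the octamer 195 bases before the start (1.6% of all windows) and a GC box 246 before it (32.7%). The window of the upstream Tnc start overlaps it and held the same octamer and GC box, 116 and 167 bases before that start, with no TATA-like match, and the window of the upstream Postn start held none of the 6 motifs. The Thbs2 and Sparc windows held none of the 6 motifs. Spp1 and Tgfbi windows, not shown, were searched too. The window of the downstream Spp1 start held the same octamer 210 bases before that start and a TATA-like match 241 before it. The Tgfbi window held a GC box 124 bases before its start. AP-1, TEAD and CArG matches were found in 6.75%, 12.6% and 1.47% of all windows and in none of the 4 shown. A match describes the letters and does not show binding.

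The genes with the most similar profiles were found by the mean absolute difference, over the 9 arrays, of log2 values centred on each gene's own mean, among 1327 genes with an SD of at least 1. For Tnc they were Irgm1, an interferon-inducible GTPase, at 0.493, the growth factor gene Ereg at 0.552 and the activin subunit gene Inhba at 0.747. For Fn1 they were Bcl6 at 0.119, Icam1 at 0.122 and Nuak1 at 0.13. For Sparc the nearest of the 1327 were Tubb3 at 0.555, Plat at 0.558 and H1f2 at 0.571. The SD filter left out genes that vary as little as Sparc, so how close these matches are is set partly by the filter. Tgfbi at 0.377 and Smoc2 at 0.405 were closer to Sparc and were not among the 1327. Irgm1 differed by -4.39 in dedifferentiated cells and -6.38 in ES cells relative to fibroblasts, and by 1.99 between dedifferentiated and ES cells.

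Of 22 other matricellular genes, 8 were called lower and 2 higher in dedifferentiated cells than in fibroblasts (10.1% and 8.79% of all genes), and 10 lower and 1 higher in ES cells (10.4% and 8.85% of all genes); the medians were -0.17 and -0.15 against 0.01 and 0.02 over all genes. The falls were led by Ccn5 at -5.46 and Fstl1 at -4.39 in dedifferentiated cells, and by Ccn5 at -5.57 and Ccn4 at -4.30 in ES cells. Ccn5 and Ccn4 are members of the CCN family of secreted growth regulators, and Fstl1 encodes a follistatin-like glycoprotein. Spock1 and Spock2, which encode testican proteoglycans related to SPARC, went the other way at 1.35 and 1.14 in dedifferentiated cells, and Spock2 at 1.20 in ES cells. Ccn1, a CCN gene often used as a readout of YAP, was called lower in both cell types at -1.49 and -1.90. Between dedifferentiated and ES cells 0 of 22 were called, where 1.55% of all genes were called. The smallest p belonged to Ccn2, another YAP target, at 0.81 (95% interval 0.50 to 1.12, adjusted p = 0.0018).

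Of 15 cell-surface receptors of these proteins, 11 were called lower and 0 higher in the dedifferentiated cells (median -1.74). Of all genes, 10.1% were called lower and 8.79% higher there. In ES cells 11 were called lower and 0 higher (median -2.06), where 10.4% of all genes were called lower and 8.85% higher. Among the 4 not called was Itgb6, at 0.23 in dedifferentiated and -0.26 in ES cells. The largest falls in dedifferentiated cells were Itga4, an integrin subunit for fibronectin and osteopontin, at -3.76 and the endocytic receptor Lrp1, which clears thrombospondins, at -3.35. In ES cells they were Cd44, a receptor for hyaluronan and osteopontin, at -4.29 and Itga4 at -3.88. The classical fibronectin receptor subunits Itga5 and Itgb1 differed by -1.51 and -1.74 in dedifferentiated cells and by -1.86 and -2.06 in ES cells, all called. Between dedifferentiated and ES cells 1 of 15 was called, Cd44, where 1.55% of all genes were called. It read 5.97, 6.02 and 6.02 on dedifferentiated, 4.85, 4.66 and 4.68 on ES and 8.97, 9.08 and 9.01 on fibroblast arrays, and rose by 1.27 over ES cells (95% interval 1.10 to 1.44, adjusted p = 2.8e-06).

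Of 10 measured genes for adaptors that couple integrins to actin, 7 were called lower in dedifferentiated cells (median -1.45). In ES cells 8 were called lower (median -1.60), and 0 were called higher in either. Of all genes, 10.1% and 10.4% were called lower and 8.79% and 8.85% higher. Pxn, at 0.12 in dedifferentiated and 0.27 in ES cells, and Tns1, at -0.14 and -0.11, were not called. Tns1 had 6 rows, and the row used had SDs of 0.26 in dedifferentiated cells, 0.52 in ES cells and 0.35 in fibroblasts. Parva, a partner of integrin-linked kinase, differed by -2.53 and -2.45, and Vcl, which encodes vinculin, by -1.79 and -2.22. Between dedifferentiated and ES cells 0 of 10 were called, where 1.55% of all genes were called. The focal adhesion protein gene Zyx had the smallest p, at 0.81 (95% interval 0.55 to 1.07, adjusted p = 0.00069).

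**Figure D3:**
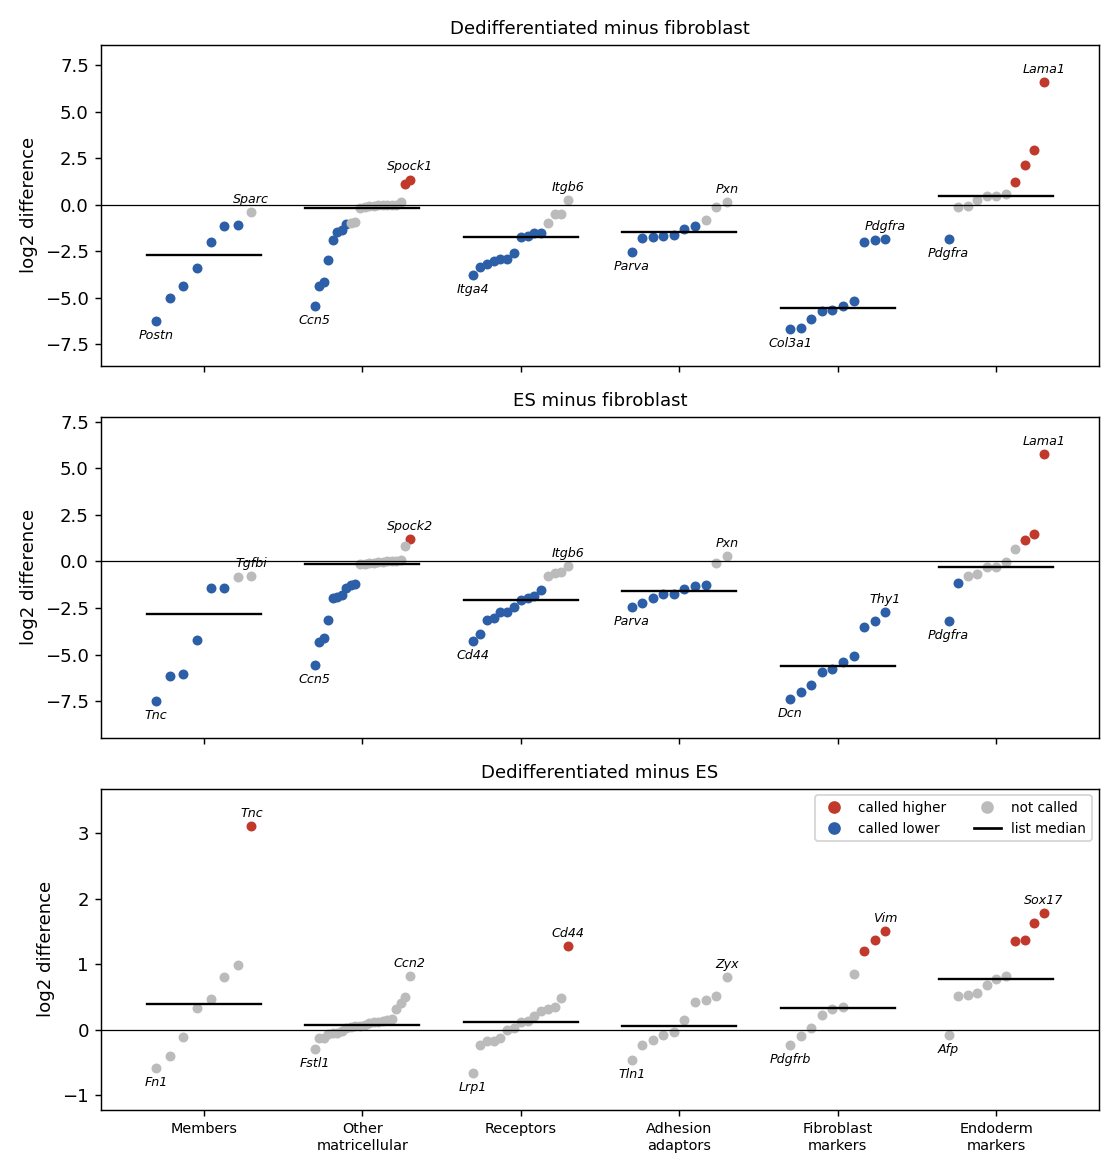
Differences in log2 expression (vertical axis) of each gene, by list, for dedifferentiated minus fibroblast (top), ES minus fibroblast (middle) and dedifferentiated minus ES cells (bottom); each point is a gene, red and blue mark genes called higher and lower, grey points were not called, and black lines are list medians. In the bottom panel the 8 genes have a median of 0.40, with Tnc at 3.11 and Fn1 at -0.58 as its ends.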

How the data were processed

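RNA of 3 dedifferentiated, 3 ES and 3 cardiac fibroblast samples was hybridised to 1 array each. The deposited values are log2 expression levels, made by the authors with RMA in Affymetrix Expression Console 1.1, per the submitters' processing notes; the genome build is not given in the sources used here. RMA understates changes of dim genes and cannot show a shift of all genes. No depth exists for arrays; their number limits precision. Of 35557 rows, 21789 had 1 symbol, 1621 several and 12147 none listed. The row with the highest mean was kept per gene. Groups follow the titles, although the fibroblasts' source field also names ES cells.

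limma 3.58.1 (R 4.3.3) was fitted to all 9 arrays with the group as the only term and empirical Bayes moderation. The labels do not say that replicate numbers pair samples. Of pairs with the same number, 3 of 9 correlated above 0.1 in their deviations from group means, against 4 of 18 others. The ranges overlapped, at -0.20 to 0.25 and -0.24 to 0.32. Between fibroblast and dedifferentiated arrays the same-number pairs had 0.10, 0.15 and 0.04, and the others -0.12 to 0.04. These values do not settle whether samples were paired. On simulated data for dedifferentiated minus fibroblast cells (19938 genes), 67 of 67 changes of 1.5 log2 units, 66 of 66 of 3 and 0 of 67 of 0.5 were called, with 1 unchanged gene called. Changes of 0.5 lie under the size required for a call. The simulated noise was normal and independent and few genes were changed. The run therefore checks that the fit and call rule work and does not measure their error rate on these arrays.

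The genes, the 10 other lists (other matricellular genes, receptors, adaptors, markers of fibroblasts, pluripotency, macrophages, endothelium, cardiomyocytes and endoderm, and sex-linked transcripts; 103 of 104 places had a row) and the tests were chosen with earlier results of these data known. Named from each list, in every comparison, were the top 2 called rises and the top 2 called falls (a list with no call gives its smallest p), and for Tnc, Fn1 and Sparc the 3 nearest profiles. Ccn1, Itga5, Itgb1, Itgb6, Pxn, Tns1, Thy1, Col1a1, Col1a2, Lum, Pdgfrb, Afp and Kdm5d, and other values of Dcn, Tcf21 and Col3a1, were added after their values were seen. Alternatives covered normalization, a filter on dim genes, the rows used, the variance model, array weights, the groups in the fit, a replicate block, the threshold and leaving out each array.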

Additional observations from a re-analysis of the deposited data

How the results depend on the processing

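Of 453 values of the 8 genes under 19 alternatives, 441 kept their direction and their side of the threshold, 11 came to be called, 1 was lost and 0 reversed. With no minimum difference, 9445 genes in place of 3765 were called for dedifferentiated against fibroblast cells, 9773 in place of 3837 for ES against fibroblast cells and 4239 in place of 310 for dedifferentiated against ES cells, where 5 of the 8 genes were called. With all rows of the table, 633 rows were called for dedifferentiated against ES cells. With array weights, 2 of the 8 genes were called there, and leaving out 1 array gave 1 to 2, the second being Thbs2. With the replicate number as a block, 7 of the 8 genes were called for dedifferentiated against fibroblast cells, 6 for ES against fibroblast cells and 1 for dedifferentiated against ES cells. Smoc2 had no value under the filter for a group mean of at least 6.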

Other observations

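Cardiomyocyte markers gave 0 called genes of 7 by limma in each of the 3 comparisons. Of all genes, 18.9% were called for dedifferentiated against fibroblast cells, 19.2% for ES against fibroblast cells and 1.55% for dedifferentiated against ES cells. The smallest p among the cardiomyocyte markers belonged to Ryr2 at 0.57 log2 units for dedifferentiated against fibroblast cells, to Myh7 at 0.48 for ES against fibroblast cells and to Tnni3 at -0.40 for dedifferentiated against ES cells. Endothelial markers went both ways in dedifferentiated cells relative to fibroblasts, with 3 of 7 higher (8.79% of all genes), led by Pecam1 at 2.44 and Cdh5 at 1.16. Of these 7, only Emcn was called lower, at -1.36 (10.1% of all genes). In ES cells Pecam1 rose by 2.48 and Emcn fell by 1.51. Of 11 endoderm markers, 4 were higher and 1 lower in dedifferentiated cells than in fibroblasts (8.79% and 10.1% of all genes). In ES cells 3 were higher and 2 lower (8.85% and 10.4% of all genes). The laminin gene Lama1 rose by 6.61 and Sox17 rose by 2.95 in dedifferentiated cells, where Pdgfra fell by 1.84. In ES cells Lama1 rose by 5.79 and Lamb1 rose by 1.46, while Pdgfra fell by 3.21 and Gata4 fell by 1.18.

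Within the 8 genes, Fn1 and Tgfbi had the closest profiles over the 9 arrays, with a mean absolute difference of 0.33 between centred log2 values. Postn and Sparc were the least close, at 2.48. The values were not scaled, so this distance also depends on how widely each gene varied. Sparc and Tgfbi were close, at 0.377, although they differed between dedifferentiated and ES cells by 0.47 and -0.39. Several arrays hold equal values, such as 5.48 for Thbs2 on dedifferentiated replicates 1 and 3 and 5.73 for Tgfbi on ES replicates 1 and 2. Such ties were not confined to low levels: Vim read 10.91 on dedifferentiated replicates 1 and 2. A small SD between such arrays does not measure precision.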
